A study of Mus musculus with 18 samples.

Results

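Glucose and energy metabolism in the liver was followed here through circular RNAs (circRNAs) of 8 genes: Gys2, Gbe1 and Phkb of glycogen metabolism, G6pc and Pfkfb1 of glucose output and glycolysis, the insulin receptor gene Insr, and the mitochondrial genes Ogdh and Ndufs1. A circRNA is a closed RNA loop that forms when the end of an exon is joined back to the start of the same or an earlier exon, and it is counted by reads across that back-splice junction. The genes were chosen by function. Every circRNA in the deposited table with both ends at exon ends of, or inside, 1 of these genes was taken, which gave 8 of the 474 circRNAs listed, 1 for each gene.

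The RNA came from livers of 18 male C57BL/6 mice, bought at 6 weeks of age, and ribosomal RNA had been removed. The 6 Control mice received corn oil by injection into the abdomen and double distilled water by mouth every day. In the 6 Cirrhosis mice the injected oil carried 10% CCl4 (carbon tetrachloride, which injures hepatocytes), with water as in Control. The 6 Cirrhosis-PTH mice had the CCl4 injections and, in place of water, a daily oral dose of 0.25 mg/g of the traditional Chinese preparation Pien Tze Huang (PTH). Every mouse was injected with 10 µl/g, 2 times each week, and the livers were taken at 12 weeks. Thus both CCl4 groups carry the toxin, and Pien Tze Huang was not given without it. The labels describe 45 mice in groups of 15 and the series' design text describes 18 in groups of 6. How the sequenced mice relate to the 45 is not stated.

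Liver keeps blood glucose stable by storing glucose as glycogen after a meal and releasing it during fasting. Glycogen synthase lengthens the chains, the branching enzyme adds branch points, and phosphorylase kinase switches on the enzyme that breaks the chains down, while glucose-6-phosphatase frees the glucose for export. Insulin shifts this balance towards storage, and mitochondria oxidise the carbon through the citrate cycle and the respiratory chain.

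The depth was low. The values corresponded to 794 to 8431 back-splice reads per library over all 474 circRNAs, and 1 read was worth 0.0343 to 0.370 CPM, the reads scaled to library depth. The 8 circRNAs had 835 of the 38784 reads. Of their 144 values, 41 were 0, 17 were a single read and 30 were 10 reads or more. A library with 0 reads allows a level of up to 0.103 to 1.11 CPM, the value of 3 reads, and that limit covers counting error only. Liver identity could be checked only through host genes: 3 of 12 hepatocyte marker genes (Abcb11, Cyp3a25 and Egfr) hosted a listed circRNA. The other hepatocyte markers of the list, Alb among them, hosted no listed circRNA, and neither did markers of stellate cells, liver endothelium, cholangiocytes and erythroid cells. Each listed circRNA had reads in at least 9 libraries, so circRNAs seen in fewer may be missing from the table.

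The back-splice junctions are what tells these circRNAs from the linear transcripts of the same genes, so the sequence across each one is given. Each line holds the last 25 bases of the last circularised exon in lower case, followed by the first 25 bases of the first circularised exon in capitals, 5′ to 3′ on the strand of the gene, from the GENCODE M21 transcripts (GRCm38).
Ogdh: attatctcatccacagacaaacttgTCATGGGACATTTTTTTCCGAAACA
Ndufs1: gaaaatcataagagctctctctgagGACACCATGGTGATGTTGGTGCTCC
Gbe1: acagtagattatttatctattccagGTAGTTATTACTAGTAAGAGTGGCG
Gys2: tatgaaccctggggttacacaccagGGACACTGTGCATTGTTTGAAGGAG
Phkb: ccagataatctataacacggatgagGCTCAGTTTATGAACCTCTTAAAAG
Insr: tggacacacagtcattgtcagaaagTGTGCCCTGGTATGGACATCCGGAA
G6pc: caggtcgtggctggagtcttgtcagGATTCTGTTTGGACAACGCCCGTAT
Pfkfb1: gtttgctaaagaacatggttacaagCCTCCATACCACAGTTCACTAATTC

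All 8 had both ends at annotated exon ends and lay wholly in coding sequence, as did 81.4% of the 435 circRNAs that could be placed in 1 transcript. The Ogdh circRNA (chr11:6313788-6317080, plus strand) joined exon 4 to exon 3, and the Gbe1 circRNA (chr16:70433545-70441319, plus strand) exon 7 to exon 4. The Gys2 circRNA (chr6:142445986-142450528, minus strand) held exons 9 to 12, the Phkb circRNA (chr8:85875634-85901957, plus strand) exons 3 to 7, the G6pc circRNA (chr11:101370706-101374705, plus strand) exons 2 to 4 of 5, and the Pfkfb1 circRNA (chrX:150608586-150613951, plus strand) exons 2 to 5. Ndufs1 (chr1:63148396-63148571, minus strand, exon 16 of 19) and Insr (chr8:3258383-3258934, minus strand, exon 2 of 21) each gave a circle of a single exon. Single-exon circles made up 4.14% of all placed circRNAs. The table gives no strand, and the Ndufs1 exon lies within an intron of the non-coding gene Ino80dos on the opposite strand.

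Spliced lengths ran from 176 bases (Ndufs1) and 295 bases (Ogdh) to 552 bases (Insr) and 563 bases (Gbe1). Only the Insr length was a multiple of 3, so it alone of the 8 keeps the reading frame of the host gene around the circle, and no stop codon was met in that frame over 3 laps. Among all 354 wholly coding circRNAs, 36.2% had a length that is a multiple of 3 and 35.9% had no such stop. In the other members the frame shifted at the junction and met a stop on the second lap. This is a property of the annotated exons, and translation was not measured. The 2 shortest circles are shown whole from the first base of their first exon, with that stop codon in capitals.
Ndufs1: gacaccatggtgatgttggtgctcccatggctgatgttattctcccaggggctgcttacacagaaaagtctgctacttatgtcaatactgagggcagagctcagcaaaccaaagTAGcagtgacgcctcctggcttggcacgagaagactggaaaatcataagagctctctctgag
Ogdh: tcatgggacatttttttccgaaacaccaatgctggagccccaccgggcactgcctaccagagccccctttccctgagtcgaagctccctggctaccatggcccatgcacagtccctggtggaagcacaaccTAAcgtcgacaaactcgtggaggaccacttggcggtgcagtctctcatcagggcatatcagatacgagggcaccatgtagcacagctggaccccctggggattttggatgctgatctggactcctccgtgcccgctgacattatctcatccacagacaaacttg
In these circles the stop began at base 115 for Ndufs1 and at base 132 for Ogdh, counted from the first base past the junction. In the Gbe1 circle it began at base 2.

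The flanking introns divided the members. Both introns were longer than 5000 bp at Ogdh, Gbe1, Phkb, Insr and Pfkfb1, which is 5 of 8 against 59.9% of the 434 circRNAs with both introns annotated. Gbe1 lay between introns of 31695 and 36986 bp, and Insr between introns of 20094 and 46682 bp. Ndufs1 had the shortest pair, 1385 bp upstream and 971 bp downstream, and shorter downstream introns were found at 5.53% of circRNAs. G6pc had 2679 and 1582 bp. At Gys2 a short upstream intron of 1005 bp stood against a downstream intron of 15600 bp.

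**Figure D1:**
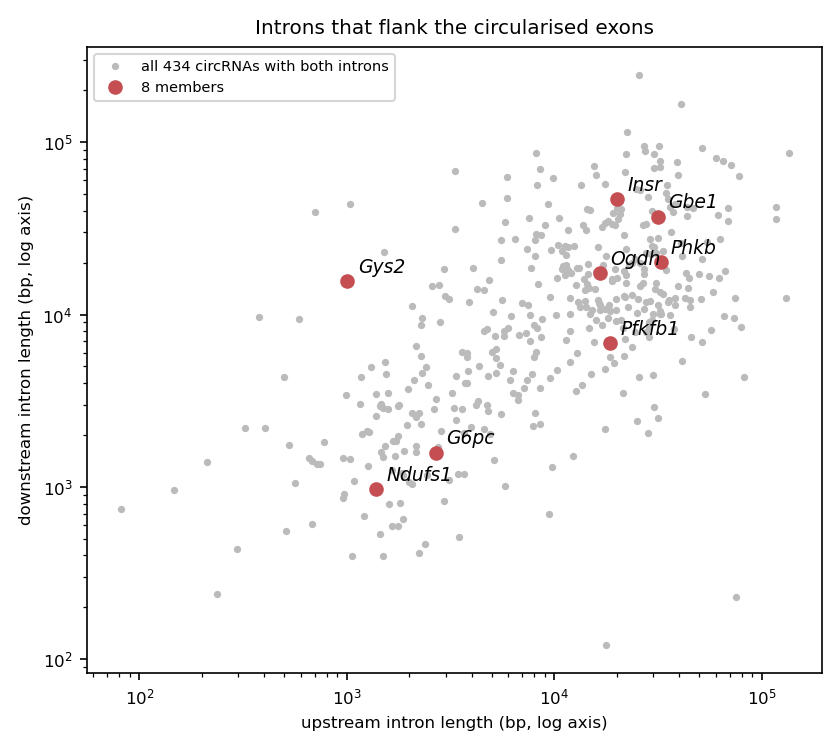
Length of the intron upstream (x axis, bp, log scale) and downstream (y axis, bp, log scale) of the circularised exons, 1 point per circRNA, with the 8 members in red and the 434 circRNAs with both introns in grey. Ndufs1 and G6pc sit among the short introns, Insr, Gbe1, Phkb, Ogdh and Pfkfb1 among the long ones, and Gys2 has 1005 bp upstream and 15600 bp downstream.

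The 8 circRNAs were spread over most of the ranks by level in the table, with higher levels above them. Junction CPM is not scaled by the length of a transcript, so levels are set side by side between genes as junction CPM. Whether each junction was detected equally well was not tested. Ogdh stood at 2.58 ± 1.45 CPM (mean ± SD, n = 18), rank 10 of 474, with reads in all 18 libraries. Ndufs1 followed at 1.33 ± 0.955 CPM (rank 41) and Gbe1 at 0.997 ± 0.611 CPM (rank 64), each with reads in 17 libraries. These 3 were the members seen regularly.

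The other 5 were sparse. Gys2 stood at 0.429 ± 0.773 CPM (rank 200), Phkb at 0.301 ± 0.403 (rank 311), Insr at 0.273 ± 0.292 (rank 336), G6pc at 0.259 ± 0.377 (rank 352) and Pfkfb1 at 0.160 ± 0.282 (rank 459). They had reads in 9 to 11 libraries and 22 to 53 reads in all. No neighbours in this order differed by more than the SD of their difference over libraries. That SD describes single libraries and is no test of the order of the means. Ogdh exceeded Ndufs1 in 15 of 18 libraries, by 1.25 ± 1.49 CPM, and Gbe1 exceeded Gys2 in 14. From Gys2 down to Pfkfb1 the higher of 2 neighbours was higher in only 6 to 9 libraries, tied in 2 to 4 and lower in 5 to 9.

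**Figure D2:**
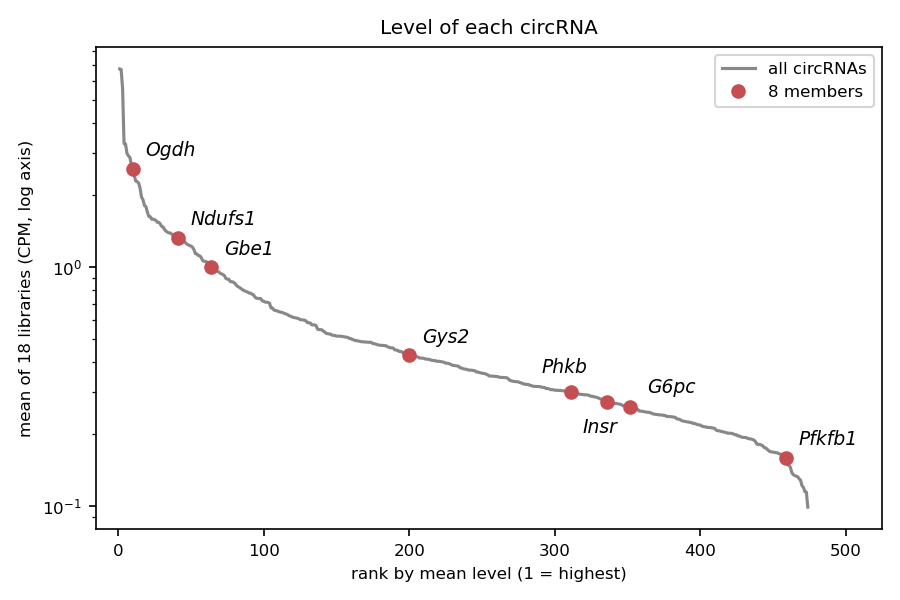
Mean level of every circRNA over 18 libraries (y axis, CPM, log scale) against its rank (x axis), with the 8 members as red points on the grey line of all 474. Ogdh lies at rank 10 with 2.58 CPM and Pfkfb1 at rank 459 with 0.160 CPM.

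None of the 8 circRNAs passed the test in any of the 3 comparisons. The test was limma on log2(CPM + 0.143), fitted to all 474 circRNAs and 18 libraries, 2-sided, with Benjamini-Hochberg adjustment at 0.05. In Cirrhosis against Control, which asks what CCl4 changed, 0 of 8 passed and 0% of all circRNAs did. At an unadjusted p under 0.05 the counts were 0 of 8 and 12.2% of all. In Cirrhosis-PTH against Cirrhosis, which asks what the medicine changed on top of CCl4, 0 of 8 passed and 0% of all. Here 0 of 8 members and 7.17% of all had an unadjusted p under 0.05. In Cirrhosis-PTH against Control the counts were again 0 of 8 and 0%, with 0 of 8 and 5.27% at an unadjusted 0.05. The comparisons share groups, so they are not independent of each other.

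On the whole reads recovered from the CPM, edgeR's quasi-likelihood test and DESeq2 also called 0 of 8 in each comparison. Over all 474, edgeR called 0 (0%), 1 (0.211%) and 0 (0%) in the same order, and DESeq2 1 (0.211%), 1 (0.211%) and 0 (0%). At an unadjusted p under 0.05, edgeR had 0 of 8 in each comparison, against 6.12%, 5.27% and 4.01% of all. DESeq2 had G6pc in Cirrhosis against Control (8.02% of all), no member in Cirrhosis-PTH against Cirrhosis (7.81% of all) and Ogdh in Cirrhosis-PTH against Control (5.91% of all). For 5 of the 8, G6pc among them, DESeq2 gave no adjusted p in Cirrhosis against Control. These could not be called there. The DESeq2 shares of all are taken over the 474, with or without an adjusted p.

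No member had groups that did not overlap, where 0.211%, 0.422% and 0.422% of all circRNAs did in the 3 comparisons in the order above. The fitted difference was above 0 for 5 of 8 in Cirrhosis against Control (56.1% of all), for 3 of 8 in Cirrhosis-PTH against Cirrhosis (42% of all) and for 5 of 8 in Cirrhosis-PTH against Control (49.8% of all). By the mean CPM of the groups the counts were 6, 3 and 2 of 8, against 58.2%, 37.3% and 47.7% of all. The sign of the fit was opposite to that of the means for Gys2 in Cirrhosis against Control, and for Ndufs1, Gbe1 and G6pc in Cirrhosis-PTH against Control. The median fitted log2 difference of the 8 was 0.18, -0.19 and 0.18, beside 0.12, -0.17 and -0.01 over all 474. With each library centred on its median over the 26 circRNAs detected in all libraries, the medians over all 474 became -0.46, 0.34 and -0.07, and those of the 8 became -0.40, 0.32 and 0.11. The members above 0 then numbered 1, 6 and 4 of 8, against 28.9%, 63.9% and 46.2% of all. On that scale limma called 0 of 8 in each comparison and 0.422%, 0% and 0% of all, and G6pc alone had an unadjusted p under 0.05, in Cirrhosis against Control and in Cirrhosis-PTH against Cirrhosis. The shares of all at an unadjusted 0.05 were 16.5%, 12.7% and 5.91%. Centring moves the values of livers with 0 reads as well, and 4 of 6 Cirrhosis livers had 0 G6pc reads. With it the G6pc difference went from -0.94 to -1.51 in Cirrhosis against Control. In Cirrhosis-PTH against Cirrhosis it went from 0.96 to 1.48. The fitted differences below are on log2(CPM + 0.143) without centring.

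**Figure D3:**
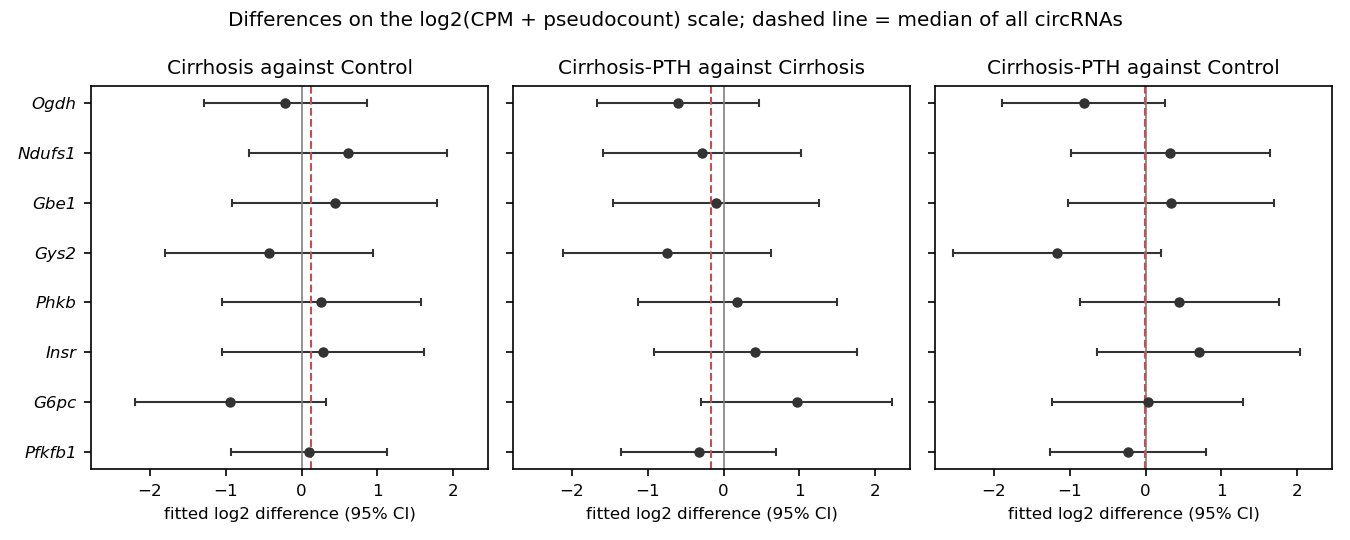
Fitted log2 difference of each of the 8 circRNAs on the log2(CPM + pseudocount) scale (x axis) in the 3 comparisons, as points with 95% confidence intervals, and the median of all 474 as a dashed line. Every interval includes 0.

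Among the glycogen genes, Gys2 encodes the liver glycogen synthase. Its circRNA ranged from 0 to 1.34 CPM in Control with a median of 0.380, from 0 to 3.14 CPM in Cirrhosis with a median of 0.0670, and from 0 to 0.412 CPM in Cirrhosis-PTH with a median of 0.0373. A single liver, Cirrhosis 6, held 17 of the 21 Cirrhosis reads. All 6 Cirrhosis-PTH livers were below the Control mean of 0.513 ± 0.514 CPM and below the Cirrhosis mean of 0.666 ± 1.24 CPM, while their own mean was 0.108 ± 0.162 CPM (mean ± SD, n = 6 each). Without Cirrhosis 6 the Cirrhosis mean was 0.172 CPM, and without Cirrhosis-PTH 6 the Cirrhosis-PTH mean was 0.0467 CPM. On the log2(CPM + 0.143) scale, which understates changes of low circRNAs, Cirrhosis-PTH differed from Control by -1.16 ± 0.70 (SE; limma adjusted p = 0.876), with a 95% interval of -2.53 to 0.21. Against Cirrhosis it differed by -0.74 ± 0.70 (limma adjusted p = 0.710). Cirrhosis differed from Control by -0.42 ± 0.70 (limma adjusted p = 0.859), although the Cirrhosis mean in CPM was the higher.

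Gbe1 encodes the glycogen branching enzyme. Its circRNA had group means of 0.958 ± 0.863 (Control), 1.09 ± 0.585 (Cirrhosis) and 0.943 ± 0.406 CPM (Cirrhosis-PTH livers). Control spread from 0 in Control 1 to 2.58 CPM in Control 3, with a median of 0.828, and the Control mean without Control 3 was 0.633 CPM. Cirrhosis ran from 0.318 to 1.83 CPM (median 1.12) and Cirrhosis-PTH from 0.514 to 1.59 CPM (median 0.866), both inside the Control range. The fitted log2 difference was 0.44 ± 0.69 in Cirrhosis against Control (limma adjusted p = 0.857), with an interval of -0.92 to 1.79. It was -0.10 ± 0.69 for Cirrhosis-PTH against Cirrhosis (limma adjusted p = 0.95) and 0.34 ± 0.69 for Cirrhosis-PTH against Control (limma adjusted p = 0.960). The last sign is opposite to that of the CPM means. These intervals are wide, and the values do not show that the groups are alike.

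Phkb encodes a regulatory subunit of phosphorylase kinase. Reads were found in 3 Control, 3 Cirrhosis and 4 Cirrhosis-PTH livers. The highest levels were 0.767 CPM in Control 6, 1.06 CPM in Cirrhosis 2 and 1.23 CPM in Cirrhosis-PTH 1, and the medians were 0.0510, 0.134 and 0.155 CPM. The groups overlapped fully at 0. The means were 0.206 ± 0.310, 0.313 ± 0.427 and 0.385 ± 0.504 CPM, and without the highest liver of each group they were 0.0943, 0.163 and 0.216 CPM. The fitted log2 differences were 0.26 ± 0.67, 0.18 ± 0.67 and 0.44 ± 0.67 for Cirrhosis against Control, Cirrhosis-PTH against Cirrhosis and Cirrhosis-PTH against Control (limma adjusted p = 0.916, 0.937 and 0.954).

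G6pc encodes the catalytic subunit of glucose-6-phosphatase, the last step of glucose release. Its circRNA was the member with the fewest reads in 1 group: Cirrhosis had 2 reads in all, 1 each in Cirrhosis 3 and Cirrhosis 4, where Control had 10 and Cirrhosis-PTH had 18. Control ranged from 0 to 1.11 CPM (median 0.161), Cirrhosis from 0 to 0.242 CPM (median 0) and Cirrhosis-PTH from 0 to 1.18 CPM (median 0.283). All 6 Cirrhosis livers lay below the Control mean of 0.366 ± 0.461 CPM, with their own mean at 0.0619 ± 0.102. In 4 of 6 Cirrhosis-PTH livers the level exceeded the highest Cirrhosis liver, with a mean of 0.349 ± 0.435 CPM. But 2 Control and 2 Cirrhosis-PTH livers were at 0 as well, so the groups overlapped. In the Cirrhosis libraries 3 reads correspond to 0.318 to 0.725 CPM, so a liver with 0 reads allows a level that high.

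The fitted log2 difference of G6pc in Cirrhosis against Control was -0.94 ± 0.64 (limma adjusted p = 0.579), with an interval of -2.19 to 0.32. That of Cirrhosis-PTH against Cirrhosis was 0.96 ± 0.64 (limma adjusted p = 0.646), with an interval of -0.29 to 2.22, and Cirrhosis-PTH against Control gave 0.03 ± 0.64 (limma adjusted p = 0.986). The mean without the highest liver was 0.218 CPM in Control (without Control 1), 0.0259 CPM in Cirrhosis (without Cirrhosis 4) and 0.183 CPM in Cirrhosis-PTH (without Cirrhosis-PTH 2). G6pc was the only member with every Cirrhosis liver below the Control mean, 1 of 8, where 7.38% of all circRNAs showed this. That rests on Control 1, since Cirrhosis 4 at 0.242 CPM lay above the Control mean of 0.218 CPM without it.

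Pfkfb1 encodes the liver form of a bifunctional enzyme that makes and removes a regulator of glycolysis. Its circRNA was the rarest of the 8, with 5, 8 and 9 reads in Control, Cirrhosis and Cirrhosis-PTH. Levels reached 0.888 CPM in Control 2, 0.913 CPM in Cirrhosis 5 and 0.240 CPM in Cirrhosis-PTH 6, and 3 livers of each group were at 0. The means were 0.187 ± 0.349, 0.210 ± 0.356 and 0.0816 ± 0.104 CPM, and without those 3 highest livers 0.0473, 0.0692 and 0.05 CPM. The fitted log2 differences were 0.10 ± 0.52, -0.33 ± 0.52 and -0.23 ± 0.52 in the order above (limma adjusted p = 0.962, 0.845 and 0.971).

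Insr encodes the insulin receptor. The single-exon circRNA of exon 2 had reads in 3 Control, 3 Cirrhosis and 5 Cirrhosis-PTH livers. It ranged up to 0.607 CPM in Control (median 0.0425), 0.670 CPM in Cirrhosis (median 0.212) and 0.876 CPM in Cirrhosis-PTH (median 0.348), and each group reached down to 0. The means were 0.183 ± 0.261, 0.269 ± 0.305 and 0.367 ± 0.329 CPM, and without Control 3 the Control mean was 0.0985 CPM. The fitted log2 difference was 0.28 ± 0.68 in Cirrhosis against Control (limma adjusted p = 0.914), 0.42 ± 0.68 in Cirrhosis-PTH against Cirrhosis (limma adjusted p = 0.846) and 0.70 ± 0.68 in Cirrhosis-PTH against Control (limma adjusted p = 0.876, interval -0.64 to 2.04). Cirrhosis-PTH 6, the deepest library, gave 16 of the 27 Cirrhosis-PTH reads.

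Ogdh encodes a subunit of the oxoglutarate dehydrogenase complex, a step of the citrate cycle. Its circRNA ranged from 1.73 to 5.33 CPM in Control (median 2.36), from 0.848 to 5.30 CPM in Cirrhosis (median 2.86) and from 0.820 to 2.31 CPM in Cirrhosis-PTH (median 1.73). All 6 Cirrhosis-PTH livers lay below both other group means, yet Cirrhosis 2 and Cirrhosis 3 stood at 0.848 and 1.29 CPM, and Control 6 at 1.73 CPM lay among the Cirrhosis-PTH livers. The means were 3.14 ± 1.52 (Control), 2.92 ± 1.71 (Cirrhosis) and 1.67 ± 0.620 CPM (Cirrhosis-PTH livers), from 106, 102 and 124 reads. The fitted log2 difference was -0.82 ± 0.55 in Cirrhosis-PTH against Control (limma adjusted p = 0.876), with an interval of -1.89 to 0.26. It was -0.60 ± 0.55 in Cirrhosis-PTH against Cirrhosis (limma adjusted p = 0.707) and -0.22 ± 0.55 in Cirrhosis against Control (limma adjusted p = 0.916).

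As a share of all circRNA reads, Ogdh made up 1.22 ± 0.363% (Control), 0.833 ± 0.329% (Cirrhosis) and 0.731 ± 0.301% (Cirrhosis-PTH livers). On that scale the larger difference between neighbouring group means was from Control to Cirrhosis, and in CPM it was from Cirrhosis to Cirrhosis-PTH. With libraries scaled to their summed circRNA CPM, the Ogdh difference was -0.56 for Cirrhosis against Control and -0.17 for Cirrhosis-PTH against Cirrhosis, with limma adjusted p = 0.666 and 0.908. Ogdh and Gys2 were the members with every Cirrhosis-PTH liver below the other group's mean, 2 of 8 in each comparison, where 18.6% of all circRNAs showed this against Cirrhosis and 11% against Control. For Gys2 this rests on 1 liver in each comparison: Cirrhosis-PTH 6 at 0.412 CPM lay above the Cirrhosis mean of 0.172 CPM without Cirrhosis 6 and above the Control mean of 0.347 CPM without Control 6. For Ogdh in CPM it held without the highest liver, with means of 2.44 CPM (Cirrhosis) and 2.71 CPM (Control) above the highest Cirrhosis-PTH liver at 2.31 CPM. As a share of all circRNA reads it did not hold for Ogdh. There the highest Cirrhosis-PTH liver, at 1.26%, lay above the means of Cirrhosis (0.833%) and Control (1.22%).

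Ndufs1 encodes a core subunit of respiratory complex I. Its circRNA ranged from 0 in Control 8 to 2.11 CPM in Control 6 (median 1.23), from 0.424 to 3.87 CPM in Cirrhosis (median 1.18) and from 0.522 to 2.1 CPM in Cirrhosis-PTH (median 0.991). In Control, 3 livers stood at 1.85 to 2.11 CPM and 3 at 0.607 CPM or less. Control 1, 2 and 6, the higher ones, had 5, 7 and 11 reads, with library totals of 2706146 to 5213790. Control 3, 7 and 8 had 4, 5 and 0 reads, with larger totals of 6591866 to 11773972. The part of depth in this was not tested. Cirrhosis 6 and Cirrhosis 1 lay above every Control liver. The means were 1.19 ± 0.925, 1.65 ± 1.32 and 1.13 ± 0.560 CPM. The fitted log2 differences were 0.61 ± 0.67 in Cirrhosis against Control (limma adjusted p = 0.808, interval -0.69 to 1.92), -0.29 ± 0.67 in Cirrhosis-PTH against Cirrhosis (limma adjusted p = 0.926) and 0.33 ± 0.67 in Cirrhosis-PTH against Control (limma adjusted p = 0.960). In the last comparison the CPM mean and median of Ndufs1 were lower in Cirrhosis-PTH, against the sign of the fit.

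**Figure D4:**
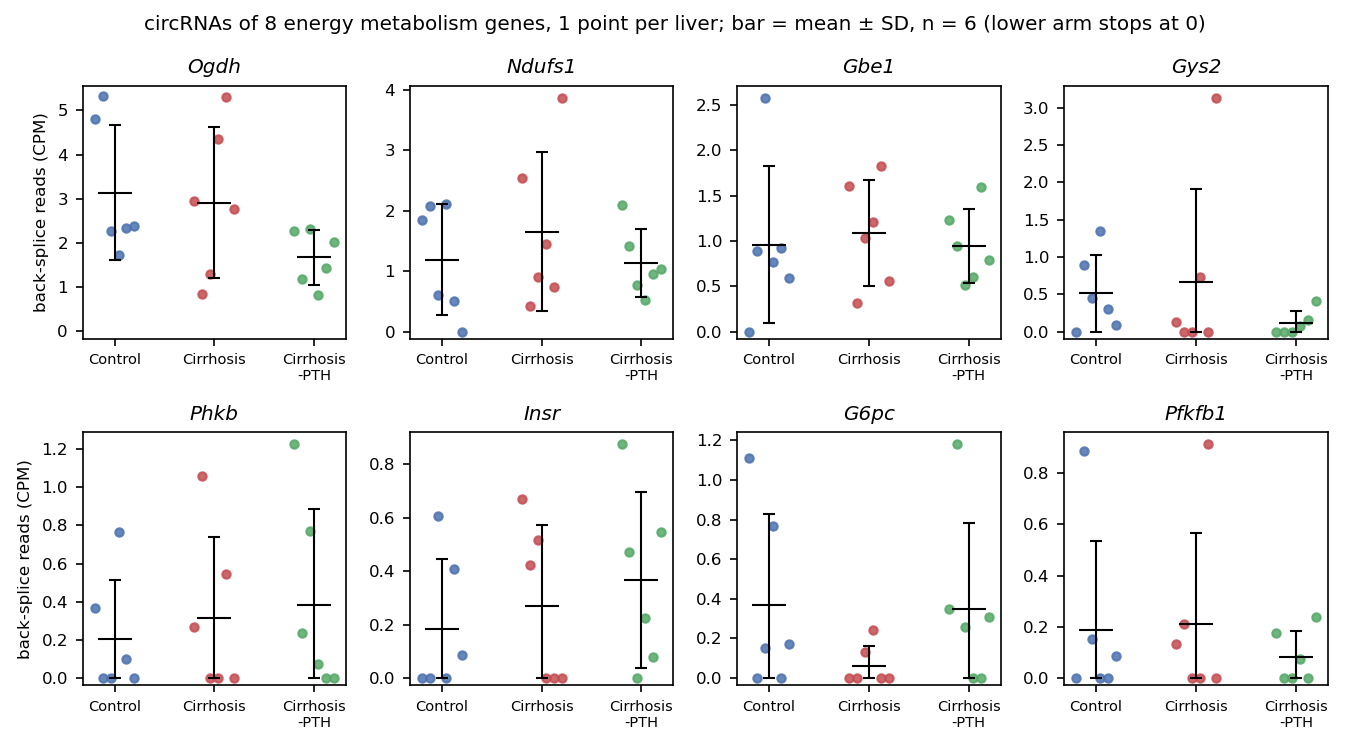
Level of each of the 8 circRNAs (y axis, CPM) in every liver of the 3 groups (x axis), with mean ± SD, n = 6 each. The groups overlap in every panel, Ogdh in Cirrhosis-PTH stays at 2.31 CPM or below, G6pc in Cirrhosis at 0.242 CPM or below, and the Gys2 mean of Cirrhosis is set by 1 liver at 3.14 CPM.

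In bulk liver, fewer cells of a type and less RNA per cell cannot be told apart, and linear transcripts of these genes were not analysed here. Of markers of other cells, the 3 circRNAs of the macrophage genes Adgre1 and Mertk, the only 2 of 10 macrophage genes with a listed circRNA, summed to 0 to 1.02 CPM in Control, 0.184 to 6.76 CPM in Cirrhosis and 0.149 to 1.19 CPM in Cirrhosis-PTH. The lymphocyte gene Ikzf1, 1 of 7 on its list, had 0.0849 to 0.959, 0 to 2.19 and 0 to 0.708 CPM in the same order. The 3 hepatocyte circRNAs summed to 2.34 ± 1.72, 1.94 ± 1.38 and 2.44 ± 1.43 CPM. The part of these in the values of the 8 was not tested.

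Other genes of the same pathways were looked up in lists of glycolysis and gluconeogenesis (44 genes), glycogen (25), insulin, glucagon and energy sensing (36), pyruvate oxidation and the citrate cycle (38), and the respiratory chain and ATP synthase (159). Besides the 8 members, 6 listed circRNAs of Mlxipl, Prkag2 and Pik3c2a are described, and the glycogen, citrate cycle and respiratory chain lists held no further host. Of these 6, 0 passed limma in each comparison. The fitted difference was above 0 for 2 of 6 in Cirrhosis against Control, 3 of 6 in Cirrhosis-PTH against Cirrhosis and 2 of 6 in Cirrhosis-PTH against Control, against the shares of all circRNAs given above.

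Mlxipl encodes the glucose-sensing transcription factor ChREBP. Its circRNA of exons 3 to 7 stood at 0.348 ± 0.209 (Control), 0.143 ± 0.261 (Cirrhosis) and 0.622 ± 0.338 CPM (Cirrhosis-PTH livers). The fitted log2 difference of Cirrhosis-PTH against Cirrhosis was 1.55 ± 0.73, with an unadjusted limma p of 0.0330 and an adjusted p of 0.624. In that comparison 7.17% of all circRNAs had an unadjusted p under 0.05. Cirrhosis against Control gave -0.99 ± 0.73 and Cirrhosis-PTH against Control 0.56 ± 0.73 (limma adjusted p = 0.613 and 0.943). Its circRNA of exons 6 to 7, which ends at the same base, stood at 0.172 ± 0.190, 0.229 ± 0.443 and 0.249 ± 0.271 CPM. For that circRNA Cirrhosis against Control gave -0.11 ± 0.61, Cirrhosis-PTH against Cirrhosis 0.37 ± 0.61 and Cirrhosis-PTH against Control 0.27 ± 0.61. The limma adjusted p values were 0.963, 0.846 and 0.971.

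Pik3c2a, a phosphoinositide kinase gene, gave 2 circRNAs whose group means were ordered differently. That of exons 6 to 9 stood at 0.424 ± 0.586, 1.04 ± 0.900 and 0.291 ± 0.271 CPM in Control, Cirrhosis and Cirrhosis-PTH. That of exons 21 to 22 stood at 0.723 ± 0.432, 0.374 ± 0.331 and 0.316 ± 0.438 CPM. The same held for Prkag2, which encodes a subunit of the energy sensor AMPK: exons 13 to 15 stood at 0.261 ± 0.239, 0.601 ± 0.813 and 0.0879 ± 0.103 CPM, and exons 2 to 3 at 0.431 ± 0.441, 0.192 ± 0.387 and 0.339 ± 0.466 CPM. These differences lay within the spread between livers, with limma adjusted p values of 0.444 to 0.992.

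Together the 8 circRNAs took 2.60 ± 0.348% (Control), 2.14 ± 0.479% (Cirrhosis) and 2.1 ± 0.424% (Cirrhosis-PTH livers) of all circRNA reads, as mean ± SD with n = 6 each. The lowest share was 1.54% in Cirrhosis-PTH 5 (exact Clopper-Pearson 95% interval 1.16 to 2.01%) and the highest 3.11% in Control 6 (2.22 to 4.23%), and the groups overlapped. No library held reads of all 8, and 4 to 7 of them were seen in each. In summed CPM the 8 stood at 6.75 ± 2.42, 7.18 ± 2.91 and 5.04 ± 1.92.

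**Figure D5:**
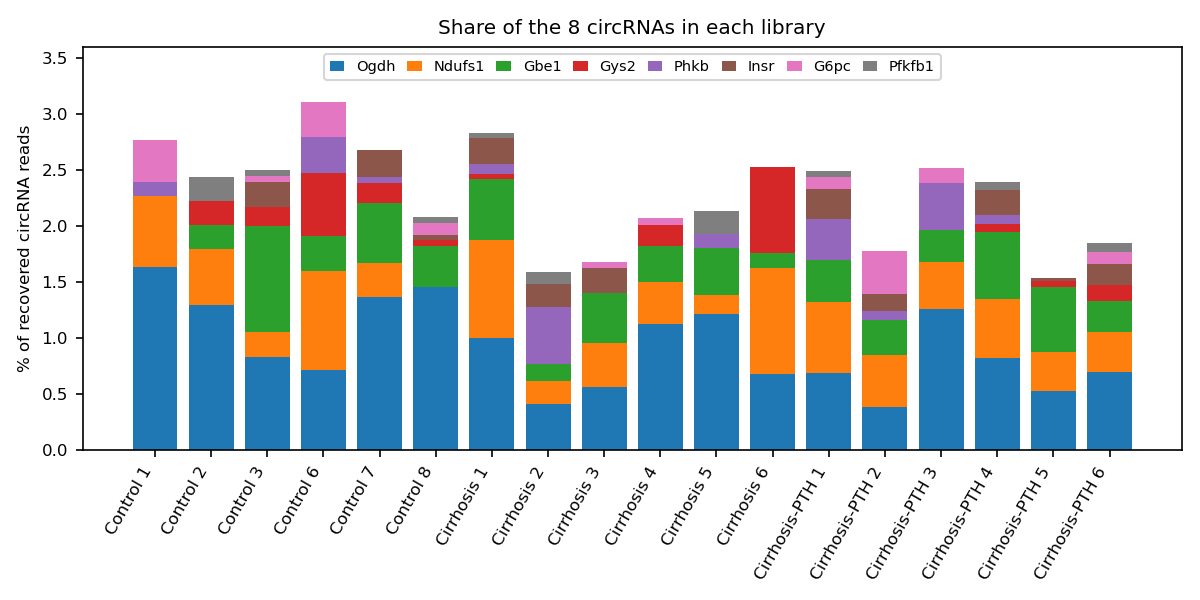
Share of recovered circRNA reads (y axis, %) taken by each of the 8 circRNAs in each of the 18 libraries (x axis), stacked. Totals run from 1.54% in Cirrhosis-PTH 5 to 3.11% in Control 6, with Ogdh the largest block in most libraries and Gys2 large in Cirrhosis 6.

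No common rise and fall of the 8 across livers was seen. The sparse members, with 22 to 53 reads each, were at 0 in many libraries, which limits what such coefficients can show. Over the 28 pairs of members, Spearman's rho across 18 libraries had a median of 0.05 and ran from -0.56 (Phkb and Gys2) to 0.41 (Gbe1 and Insr), beside a median of 0.06 over all pairs of circRNAs. For the 3 members seen in at least 15 libraries, circRNAs of most similar pattern were those of Tmem56 (rho 0.75) and Rmdn2 (0.74) for Ogdh, Rfx7 (0.65) and Ttc39c (0.62) for Ndufs1, and Car8 (0.65) for Gbe1. The values of 1 library share a scale. On the share of circRNA reads these coefficients were 0.57, 0.58, 0.39, 0.38 and 0.14.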

How the data were processed

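Total RNA of 18 mouse livers was sequenced after removal of ribosomal RNA, per the labels' protocols. The deposited values are CPM of back-splice reads made by the authors, 1 line per circRNA. Per the file headers the caller was CIRI. The submitters' processing notes name the build GRCm38 and, for the series as a whole and without roles, Trim Galore, cutadapt 4.2, Bowtie2, Bowtie 1.3.1, StringTie 2.1.5 and HISAT2 2.2.1. The sources used here do not name the denominator of the CPM. Each listed circRNA was above 0 in at least 9 libraries.

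Every value above 0 (5886, 100%) was a whole multiple of 1 read within 0.01, which gave whole reads and the totals behind the CPM (2706146 to 29164326). These reads carry no molecular identifiers. Ends were matched to GENCODE M21 exons, and the strand is that of the host gene. Group and number came from sample titles, and each library is 1 mouse.

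limma 3.58.1 (trend option, R 4.3.3) was fitted to log2(CPM + 0.143), where 0.143 is the median over libraries of what 1 read is worth. The filter (reads in 6 or more libraries) took out 0 circRNAs. The alternatives were other pseudocounts, filters and scalings, edgeR 4.0.16 with TMM, DESeq2 1.42.0, the replicate block and left-out libraries. Descriptions used Python 3.11.15, pandas 2.3.3, SciPy 1.17.1 and matplotlib 3.10.9.

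Every circRNA of the 8 genes is named. The pathway genes come from fixed lists, and the circRNAs of like pattern are the 2 of highest Spearman rho. Of the circRNAs these rules take, 2 are not reported here. The members and lists were chosen with earlier results of these data known.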

Additional observations from a re-analysis of the deposited data

Results flagged for a closer look

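In 24 groups of 6 livers (8 circRNAs in 3 groups), 5 had a highest liver far from the rest, by Dixon's ratio of the gap to the range at its 95% critical value. Chance flags about 1 in 20 groups, and values that are mostly 0 favour such gaps. Gys2 stood at 3.14 CPM in Cirrhosis 6, with the next Cirrhosis liver at 0.725. Gbe1 stood at 2.58 CPM in Control 3 (next 0.917). G6pc stood at 1.18 CPM in Cirrhosis-PTH 2 (next 0.350). Pfkfb1 stood at 0.888 CPM in Control 2 (next 0.152) and at 0.913 CPM in Cirrhosis 5 (next 0.212).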

How the results depend on the processing

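Over the alternatives run, 0 of the 249 values of the 8 circRNAs passed, and 24 changed sign. The smallest adjusted p was 0.227 (limma with median centring, G6pc in Cirrhosis against Control). DESeq2 gave no adjusted p for 5 of the 8 in Cirrhosis against Control, G6pc among them, so those could not pass. The fits without the filter, with the stricter filter and to only the 2 groups compared could not change a sign. Nor could the block in Cirrhosis-PTH against Cirrhosis. These left each fitted difference as in the main fit, so the 249 values include some whose sign was fixed. Ogdh, Gys2, Phkb, Insr and G6pc kept their sign in Cirrhosis-PTH against Cirrhosis, and Ogdh and Gys2 in all 3 comparisons.

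In Cirrhosis against Control, median centring gave Gbe1 -0.14, Phkb -0.31, Insr -0.30 and Pfkfb1 -0.48. Gbe1 was -0.25 in edgeR and -0.38 in DESeq2. The replicate block, on the 4 numbers both groups share, gave Ndufs1 -0.0535 and Pfkfb1 -0.41. In Cirrhosis-PTH against Cirrhosis, median centring gave Ndufs1 0.23, Gbe1 0.41 and Pfkfb1 0.19, scaling to summed circRNA CPM gave Ndufs1 0.11 and Gbe1 0.30, and Gbe1 was 0.26 in edgeR and 0.16 in DESeq2. In Cirrhosis-PTH against Control, G6pc was -0.0058 with 4 times the pseudocount, -0.0087 with 1 CPM, -0.0362 centred, -0.0568 scaled, -0.0528 in edgeR and -0.45 in DESeq2. There Ndufs1 was -0.25 with the replicate block and -0.0427 in DESeq2, and Gbe1 -0.21 in DESeq2. Median centring moved the differences of all circRNAs by the same amount within a comparison. It changed the sign of those that were smaller than that shift and opposite to it. The blocked fit to Control uses fewer livers. For the other settings the cause was not tested.

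Over all circRNAs, the calls in Cirrhosis against Control were 2 with median centring, 1 in DESeq2 and 0 to 1 with 1 library left out (1 without Control 3). In Cirrhosis-PTH against Cirrhosis they were 1 in edgeR, 1 in DESeq2 and 0 to 1 with 1 library left out (1 without Cirrhosis 1, 2 or 3). None of these calls was a member, and in the 36 fits with 1 library left out the smallest adjusted p of a member was 0.544 (limma).

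The replicate block called 0 circRNAs in each comparison. Libraries of the same number did not deviate together (correlations -0.06 to 0.08 over 14 pairs), so the numbers were not taken as pairs. Of 24 group means, 13 moved by over 1.5 times without the highest liver. Depth limits Pfkfb1, G6pc, Insr, Phkb and Gys2, which have 22 to 53 reads each.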
